A study of Brachypodium distachyon with 24 samples.

Results

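The F1 hybrid of 2 inbred accessions of *Brachypodium distachyon*, a model grass, was compared with both of its parents under drought. The comparison used 11 of the 24 leaf RNA-seq libraries: 5 F1 hybrid plants, 3 Bd3-1 plants and 3 Bd21 plants, all brought down to 55% of soil field capacity over 6 days from the 33rd day after sowing. The other 13 libraries, from well-watered plants held at 85% of field capacity (5 F1 hybrid, 5 Bd3-1 and 3 Bd21), were used for the same comparison in control and for the shared estimate of the spread. Each library was made from the youngest fully expanded leaf of a plant, as bulk tissue. The F1 plants came from pollinating Bd3-1 flowers with Bd21, and no transgene or chemical agent was part of the labels. The hybrids were dried down and harvested in an experiment of their own, to which, by the design text, only 2 Bd3-1 control plants were added, and which ones is not given. All drought parents therefore came from the other dry-down, so that generation and experiment cannot be told apart in any difference between the F1 and a parent below.

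In an F1 between inbred lines every gene is present as an allele from each parent. Where each allele keeps the activity it has in its own parent, the F1 total lies midway between the parents, which is called additive. A total near that of a single parent is called dominant, and a total outside the range of both parents is called transgressive. In drying leaves the hormone abscisic acid (ABA) accumulates, stomata close, and protective proteins such as dehydrins, ABSCISIC ACID, STRESS AND RIPENING (ASR) proteins and late embryogenesis abundant (LEA) proteins are made.

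The labels were checked against the allele counts. Over 3207 to 3376 genes whose alleles could be told apart and that had enough counts, the median share of the Bd3-1 allele lay between 49.2% and 49.9% in each of the 5 F1 drought plants, as in a heterozygote. In plants 1, 2 and 3, between 94.8% and 97.7% of these genes had a Bd3-1 share between 20% and 80%, against 84.8% in plant 4 and 80.3% in plant 5, so single-gene allele ratios were more scattered in plants 4 and 5. Total counts ranged between 10607196 and 32075566 in the F1 plants, between 17874611 and 42354206 in Bd3-1 and between 6905973 and 30224270 in Bd21. F1 plant 4 and Bd21 plant 2, which had the lowest total, stood apart from their groups, with 1473 and 1451 of 14494 genes at least 2-fold from their group's median, against 78 to 988 in the other 9 libraries. The leaf gene Bradi4g31257, which encodes a chlorophyll a-b binding protein, was present in all 11 libraries, at 36.7 to 67.2 CPM (counts scaled to a common library size) in the F1, 39.8 to 72.11 CPM in Bd3-1 and 61.9 to 90.3 CPM in Bd21.

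Few genes were called different between the F1 and its parents by edgeR, with 3 plants of each parent. Of 22629 genes tested with edgeR's quasi-likelihood test at a Benjamini-Hochberg adjusted p under 0.05, the F1 was higher than Bd3-1 in 254 genes and lower in 120 (1.65% called in all, 1.12% higher and 0.530% lower). It was higher than Bd21 in 137 genes and lower in 90 (1.00% called in all, 0.605% higher and 0.398% lower). At an unadjusted p under 0.05, 2622 genes passed against Bd3-1 and 2952 against Bd21. A second tool, DESeq2, called 770 and 700, so a gene without a call need not be equal in the F1 and the parent. The parents differed from each other in 422 genes (1.86%), with Bd3-1 higher in 152 (0.672%) and lower in 270 (1.19%). Median log2 fold changes over all genes were 0.03 for the F1 over Bd3-1 and 0.06 for the F1 over Bd21. Both F1 comparisons share the F1 libraries, and in bulk leaf fewer cells of a type and less RNA per cell cannot be told apart. Without Bd21 plant 3 the number of genes called against Bd21 was 80, without Bd21 plant 2 it was 100, and without F1 plant 2 it was 136. Without Bd3-1 plant 2 and without Bd3-1 plant 3, 202 and 203 genes were called against Bd3-1.

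The 3 pairwise calls were used to sort the genes. The F1 lay above both parents in 14 genes and below both in 28. It lay between them, called different from each, in 22. In 81 genes that differed between the parents the F1 was called different from Bd21 and not from Bd3-1 (sorted as like Bd3-1), and in 183 it was called different from Bd3-1 and not from Bd21 (sorted as like Bd21). In another 136 genes the parents differed and the F1 was called different from neither. A further 209 genes separated the F1 from a single parent with no call between the parents, and 21956 had no call. Being sorted as like a parent means that a difference was not called, and does not show that the levels were equal.

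**Figure D1:**
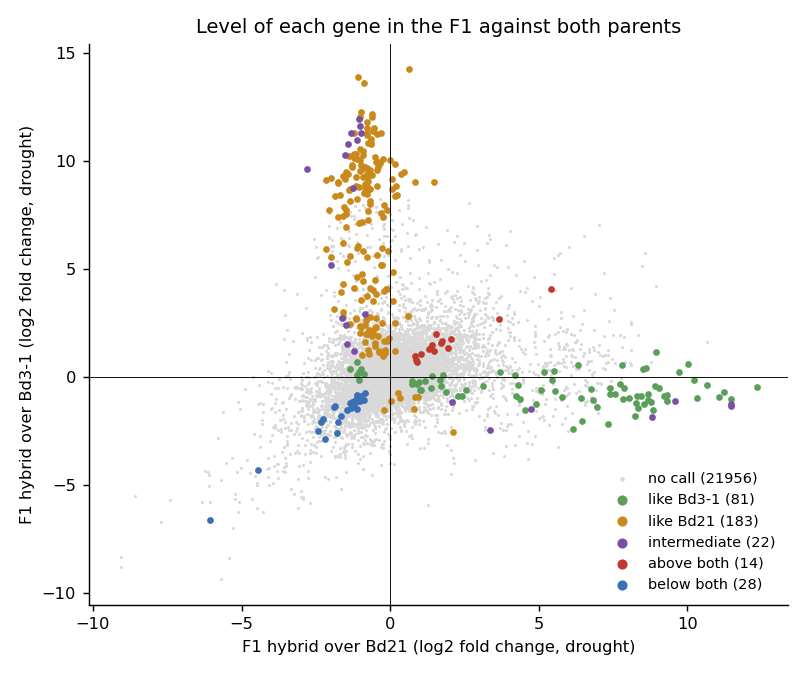
Fitted log2 fold change of every gene in the F1 over Bd21 (x axis) and over Bd3-1 (y axis) under drought, with 1 point per gene; grey points had no call, and the unresolved and single-parent calls are not drawn. The 14 genes above both parents lie at the upper right and the 28 below both at the lower left, while the 183 genes like Bd21 and the 81 like Bd3-1 run mainly along the axes; fitted values of genes with 0 counts in a parent depend on the prior count.

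The gene farthest above both parents was a dehydrin. Bradi1g37410, an ortholog of *Arabidopsis* RAB18, had 73.3, 101, 43.0, 216 and 88.8 CPM in the F1 plants, against 11.2, 3.46 and 4.03 CPM in Bd3-1 and 4.25, 1.35 and 1.40 CPM in Bd21. Every F1 plant lay above every parental plant, which was a condition for naming genes by class. In 10.1% of all genes the F1 libraries did not overlap those of Bd3-1 and in 9.67% those of Bd21. The log2 fold change was 4.06 ± 0.73 (SE) over Bd3-1 (adjusted p = 0.00435) and 5.40 ± 0.79 over Bd21 (adjusted p = 0.00167), and the call held in all 18 alternatives. In control the gene was almost silent, with a mean of 0.149 CPM in the F1 and no count in the 5 Bd3-1 and 3 Bd21 plants. F1 alleles of this gene could not be told apart by the criterion used here.

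A second gene above both parents, Bradi3g45080, had 147, 174, 54.4, 118 and 93.5 CPM in the F1, against 32.6, 7.52 and 15.3 CPM in Bd3-1 and 9.12, 12.3 and 6.59 CPM in Bd21. The groups did not overlap, as the naming rule required. Its log2 fold change was 2.67 ± 0.62 over Bd3-1 (adjusted p = 0.0219) and 3.66 ± 0.66 over Bd21 (adjusted p = 0.00423). The first call was lost without F1 plant 2 (adjusted p = 0.0505), Bd3-1 plant 2 (0.154) or Bd3-1 plant 3 (0.143), and the other without Bd21 plant 3 (0.0553). In control the F1 mean was 16.46 ± 10.0002 CPM (SD, n = 5), against 8.24 ± 6.44 CPM in Bd3-1 (n = 5) and 5.05 ± 2.37 CPM in Bd21 (n = 3).

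Bradi3g50220, an ortholog of the ABA-responsive transcription factor gene ATHB-7 of *Arabidopsis*, was also above both parents. The F1 plants had 347, 465, 402, 299 and 366 CPM, against 105, 124 and 53.5 CPM in Bd3-1 and 123, 155 and 113 CPM in Bd21. The lowest F1 plant exceeded the highest parental plant. Its log2 fold change was 2.00 ± 0.36 over Bd3-1 (adjusted p = 0.00201) and 1.53 ± 0.35 over Bd21 (adjusted p = 0.0321). The second call was lost without Bd21 plant 1 (adjusted p = 0.101), plant 2 (0.092) or plant 3 (0.157) and without F1 plant 2 (0.076) or F1 plant 5 (0.0501), and without F1 plant 4 and Bd21 plant 2 together (0.0893). The Bd21 allele was the more abundant in all 5 F1 plants, with a mean log2 ratio of Bd3-1 to Bd21 of -0.71 ± 0.29 (SD, n = 5; exact permutation of signs, two-sided, p = 0.0625, a value that 5 plants cannot go below).

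In all, the 14 genes above both parents had log2 fold changes between 0.68 and 4.06 over Bd3-1 and between 0.83 and 5.40 over Bd21, and 11 of them were at least 2-fold higher than each parent. All 14 had no overlap between the F1 and parental libraries, beside 2.47% of all genes whose F1 libraries lay all above or all below both parents' libraries. The same libraries sorted these genes, so the lack of overlap is a description. The gene nearest the threshold inside the class had a larger adjusted p of 0.0485, and the nearest outside it 0.056. The number in the class depended on single libraries: it was 8 without Bd3-1 plant 1, Bd21 plant 1 or Bd21 plant 2, 6 without F1 plant 2, 4 without Bd3-1 plant 2 or Bd21 plant 3, and 2 without Bd3-1 plant 3.

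Among the 28 genes below both parents, the largest difference was in Bradi5g00970, for which the reference table gives no name. It had 0.318, 0.21, 0.3, 0.488 and 0 CPM in the F1, against 18.3, 4.57 and 60.7 CPM in Bd3-1 and 32.8, 15.5 and 8.12 CPM in Bd21. The gene was thus barely detected in any F1 plant and varied widely among parental plants. The log2 fold change was -6.64 ± 1.38 over Bd3-1 (adjusted p = 0.00887) and -6.08 ± 1.36 over Bd21 (adjusted p = 0.0286). The call against Bd3-1 was lost without Bd3-1 plant 3 (adjusted p = 0.0779), and that against Bd21 in 7 of the 11 fits that left out a library (F1 plants 1, 2, 4 and 5, and Bd21 plants 1, 2 and 3; adjusted p up to 0.0815) and without F1 plant 4 and Bd21 plant 2 together (0.0946). In control it averaged 0.716 ± 0.72 CPM in the F1 (SD, n = 5), 13.8 ± 19.2 CPM in Bd3-1 (n = 5) and 10.3 ± 7.12 CPM in Bd21 (n = 3).

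Bradi3g29580 had 4.76, 6.90, 8.51, 2.72 and 20.8 CPM in the F1, against 36.7, 76.2 and 32.7 CPM in Bd3-1 and 46.5, 38.0 and 53.2 CPM in Bd21. The F1 did not overlap the parents, as the naming rule required. Its log2 fold change was -2.49 ± 0.56 over Bd3-1 (adjusted p = 0.0182) and -2.41 ± 0.56 over Bd21 (adjusted p = 0.0349). The call against Bd3-1 was lost without F1 plant 1 or 2 or Bd3-1 plant 2 (adjusted p up to 0.157), and that against Bd21 without any of the 3 Bd21 plants or F1 plants 1, 2, 3 or 4 (up to 0.131). Without F1 plant 4 and Bd21 plant 2 together neither was called (0.0516 and 0.1402). The gene was also sorted as below both parents in control.

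Bradi3g18390, also named for its interaction with the condition, kept both calls throughout. The F1 plants had 35.4, 30.95, 33.1, 28.9 and 36.3 CPM, against 60.3, 84.4 and 78.08 CPM in Bd3-1 and 73.02, 96.2 and 69.8 CPM in Bd21. Its log2 fold change was -1.17 ± 0.19 over Bd3-1 (adjusted p = 0.000526) and -1.27 ± 0.19 over Bd21 (adjusted p = 0.000574), called in all 18 alternatives. Its control means were 88.5 ± 16.5 CPM in the F1 (SD, n = 5), 89.8 ± 18.2 CPM in Bd3-1 (n = 5) and 84.14 ± 19.4 CPM in Bd21 (n = 3).

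The 28 genes below both parents had log2 fold changes down to -6.64 over Bd3-1 and -6.08 over Bd21, and 22 were at least 2-fold lower than each parent. In 27 of 28 the F1 libraries did not overlap those of either parent (2.47% of all genes), which again describes genes that the same libraries sorted. The nearest gene inside the threshold had a larger adjusted p of 0.0496, and the nearest outside it 0.0505. The number in the class fell to 18 without F1 plant 1, Bd3-1 plant 1 or Bd3-1 plant 3, 17 without Bd21 plant 1, 14 without Bd21 plant 2, 13 without Bd3-1 plant 2, and 10 without F1 plant 2 or Bd21 plant 3.

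**Figure D2:**
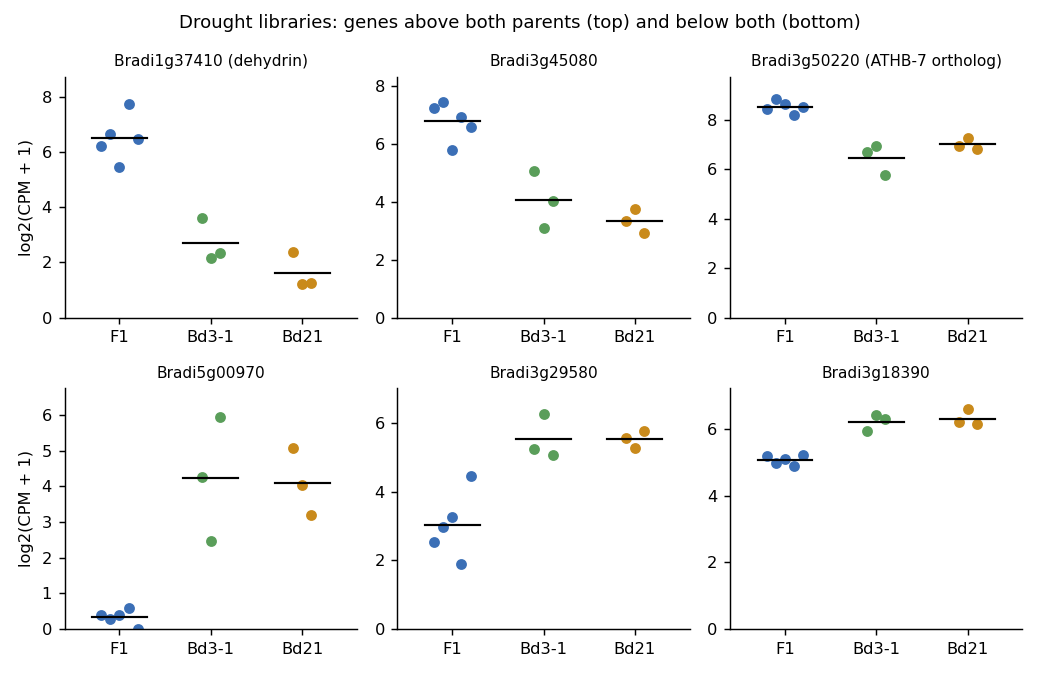
Level of 6 genes in each drought library, as log2(CPM + 1) on the y axis, in the F1 (5 plants), Bd3-1 (3) and Bd21 (3); points are plants and bars the mean of the log2 values. In each of the 3 upper genes every F1 plant lies above every parental plant, and in each of the 3 lower genes every F1 plant lies below. Lack of overlap was a condition for naming genes by class.

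The same sorting in the control libraries gave 0 genes above both parents and 9 below both with edgeR, although 397 genes were above both at an unadjusted p under 0.05 and DESeq2 called 21 above both. Of the 14 genes above both in drought, 11 had no call in control and 3 were called against a single parent. Of the 28 below both, 2 (Bradi3g29580 among them) were below both in control, 24 had no call and 2 were called against a single parent. Without regard to calls, 12 of the 14 were higher in the F1 than in both parents in control too, beside 36.0% of all genes tested, with median log2 fold changes of 0.43 over Bd3-1 and 0.66 over Bd21 in control, against 1.41 and 1.503 in drought. Of the 28, 21 were lower in the F1 than in both parents in control, beside 32.3% of all genes. A call in drought and none in control does not show that the conditions differ.

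That difference was tested with the interaction of condition and departure from the mid-parent, which 3 of 22629 genes (0.0133%) passed at an adjusted p under 0.1, while 1682 genes had an unadjusted p under 0.05. Bradi3g18390 was lower, with an interaction of -1.25 ± 0.22 on the log2 scale, and so was Bradi1g34070, at -1.01 ± 0.18 (adjusted p = 0.0944 each). The F1 means of Bradi1g34070 were 29.0 CPM in drought and 64.6 CPM in control, while Bd3-1 had 36.8 and 45.4 CPM and Bd21 43.7 and 43.0 CPM. The other gene, Bradi5g12865, named after its values were seen, was higher (6.50) at low levels, with F1 means of 5.65 CPM in drought and 0.0573 CPM in control. Bd3-1 had 3.005 and 0.841 CPM and Bd21 0.377 and 1.60 CPM. In drought the F1 plants (2.14 to 9.29 CPM) overlapped those of Bd3-1 (1.36 to 3.98 CPM). The calls depended on the fit: no gene passed without filtering low counts, with the replicate number in the fit, or without any of 9 of the 11 drought libraries, 14 passed without F1 plant 3, 1 without Bd21 plant 1, and DESeq2 called 50.

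The drought response of these genes was then set out by genotype. On the scale of log2(mean CPM + 1), the median difference of drought minus control over the 14 genes above both parents was 1.59 in the F1, 0.79 in Bd3-1 and 0.73 in Bd21, and all 14 had the higher mean in drought in the F1 and in Bd21, as did 11 in Bd3-1. Of all 22629 genes, 11849 had the higher mean in drought in the F1, 11010 in Bd3-1 and 11558 in Bd21. Over the 28 genes below both the median difference was -1.16 in the F1, -0.20 in Bd3-1 and -0.20 in Bd21. Over all genes it was 0.03, -0.006 and 0.01. Since the same F1 drought libraries chose these genes, the values are a description.

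Of the dehydrin, ASR and LEA genes named by the study, 3 of 4 were higher in the F1 than in Bd3-1 and 1 of 4 higher than in Bd21, beside 1.12% and 0.605% of all genes tested. The median log2 fold change was 2.92 over Bd3-1 and 2.61 over Bd21, beside 0.03 and 0.06 over all genes. The second dehydrin, Bradi3g43870, had 27.4, 48.7, 29.4, 125 and 6.88 CPM in the F1, against 3.86, 0.674 and 2.07 CPM in Bd3-1 and 2.20, 4.79 and 0 CPM in Bd21. All F1 plants were again above all parental plants, at 4.43 ± 1.13 over Bd3-1 (adjusted p = 0.0423) and 4.41 ± 1.14 over Bd21 (adjusted p = 0.0635, not called). The Bd3-1 call was lost in 10 of 18 alternatives, among them DESeq2 (adjusted p = 0.088) and the fits without F1 plant 1, 2 or 4, Bd21 plant 1 or any Bd3-1 plant (up to 0.218).

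The ASR5 ortholog Bradi4g24650 was abundant, with 1697, 2222, 886, 1416 and 1824 CPM in the F1, 631, 273 and 494 CPM in Bd3-1 and 948, 1021 and 782 CPM in Bd21. The F1 lay above every Bd3-1 plant and overlapped Bd21. It rose by 1.79 ± 0.34 over Bd3-1 (adjusted p = 0.00365, or 0.0523 without Bd3-1 plant 2), and its difference from Bd21, 0.81 ± 0.33, was not called (adjusted p = 0.277). The Bd21 allele was the more abundant in all 5 F1 plants, at a mean log2 ratio of Bd3-1 to Bd21 of -0.88 ± 0.12 (SD, n = 5, two-sided p = 0.0625 by exact permutation of signs), beside -0.98 between the parents. The LEA gene Bradi1g51770 was at 61.4 to 93.7 CPM in the F1, 12.9 to 43.1 CPM in Bd3-1 and 52.0 to 101 CPM in Bd21, and was not called against Bd3-1 (adjusted p = 0.575) or Bd21 (0.99).

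All 7 genes of ABA synthesis and signalling had positive fitted fold changes against both parents, beside 11963 (over Bd3-1) and 12363 (over Bd21) of all 22629 genes, but the HAB1 ortholog Bradi2g18510 was at -0.0222 over Bd3-1 without Bd3-1 plant 3. The ATHB-7 ortholog was the only one of the 7 called, beside 1.12% and 0.605% of all genes called higher. Medians were 0.81 over Bd3-1 and 0.75 over Bd21. Bradi1g13760, an ortholog of NCED2, which encodes the 9-cis-epoxycarotenoid dioxygenase of ABA synthesis, had 98.7, 115, 112, 164 and 58.7 CPM in the F1, against 29.8, 31.7 and 17.3 CPM in Bd3-1 and 26.3, 64.5 and 17.1 CPM in Bd21. The difference was not called against Bd3-1 (adjusted p = 0.304, but 0.0199 with only the drought libraries in the fit) or Bd21 (0.415), and the lowest F1 plant fell within the Bd21 range. The other 5, orthologs of CYP707A1, which breaks ABA down, of the transcription factors AITR3 and GBF2, and of the phosphatases HAB1 and HAB2, which restrain ABA signalling, were also not called. In control the median departure of the list from the mid-parent was 0.23, against 0.77 in drought.

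Among the other gene groups the study named, no member was called against either parent in stomata and wax (3 genes), phenylpropanoids and flavonoids (11), NAC factors and chlorophyll (8), the circadian clock (6) and carbohydrates (7) with edgeR. At an unadjusted p under 0.05 the members past the threshold against Bd3-1 numbered 1, 1, 2, 1 and 0 in this order, and 1 stomata and wax gene passed against Bd21. Of all 22629 genes, 2622 passed against Bd3-1 and 2952 against Bd21. DESeq2 called 1 stomata and wax gene against each parent and no member of the other 4 groups, beside 770 of all genes against Bd3-1 and 700 against Bd21. All 8 NAC and chlorophyll genes had negative fitted values over Bd3-1 (median -0.88) and 5 of 8 over Bd21 (median -0.09), none of them called. The phenylalanine ammonia-lyase gene Bradi5g15830, at the entry of the phenylpropanoid pathway, had 201 CPM in F1 plant 4 and 13.4 to 35.3 CPM in the other 4, with 32.6 to 35.9 CPM in Bd3-1 and 31.8 to 71.6 CPM in Bd21.

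Of the 10 genes from the regulatory pairs of the study, 2 fell against Bd3-1, beside 0.530% of all genes, and DESeq2 called 3, beside 770 of all genes. Of the 10, 6 had positive fitted values over Bd3-1 (median 0.72), beside 11963 of all 22629 genes. An unadjusted p under 0.05 was found in 7, beside 2622 of all genes. None was called against Bd21 by edgeR or DESeq2 (2 at an unadjusted p under 0.05, beside 2952 of all genes). The serine-type endopeptidase gene Bradi5g18277 had 208, 188, 194, 222 and 105 CPM in the F1, against 535, 2337 and 689.8 CPM in Bd3-1 (log2 fold change -2.69 ± 0.52, adjusted p = 0.00403). The zinc transporter gene Bradi1g53680 had 153, 145, 111, 135 and 116 CPM in the F1, against 296, 879 and 330.3 CPM in Bd3-1 (-1.93 ± 0.37, adjusted p = 0.00454). Bd3-1 plant 2 was the highest of its group in both, and neither was called without it (adjusted p = 0.132 and 0.145), although the F1 lay below all 3 Bd3-1 plants. Bd21 had 302 to 338 CPM of the endopeptidase gene and 163 to 243 CPM of the transporter gene.

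The 22 intermediate genes were the only ones called different from both parents with the F1 between them. Bd3-1 was higher in 7 and lower in 15, and 11 had no count in a parent. The number was 11 without F1 plant 1 or 2, 12 without Bd21 plant 1, 13 without F1 plant 5, Bd21 plant 2 or Bd21 plant 3, and 14 without F1 plant 3 or 4. Bradi3g08385 had 23.3, 25.6, 14.6, 28.6 and 17.5 CPM in the F1, against 53.4, 58.9 and 72.08 CPM in Bd3-1 and 0.781, 1.97 and 0.061 CPM in Bd21. The F1 mean was 35.7% of that of Bd3-1, and the call against Bd3-1 (adjusted p = 0.0307) was lost without any of the 3 Bd3-1 plants or F1 plants 1, 2, 3 or 5 (up to 0.161) and with only the drought libraries in the fit (0.1003). Bradi4g25645 lay closer to its low parent, at 5.49, 6.098, 3.22, 9.82 and 2.32 CPM in the F1, 18.7, 24.9 and 46.2 CPM in Bd3-1 and 0.405, 0 and 1.04 CPM in Bd21. Its call against Bd3-1 (adjusted p = 0.0225) was lost without Bd3-1 plant 2 or 3 or F1 plants 1, 3 or 5 (up to 0.196), and that against Bd21 (0.0265) without Bd21 plant 1 or 2 (up to 0.121) and without F1 plant 4 and Bd21 plant 2 together (0.172).

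In the other direction, Bradi4g09247 had 27.9, 29.1, 49.9, 17.9 and 23.8 CPM in the F1, against 1.12, 0.63 and 0.705 CPM in Bd3-1 and 117, 108 and 133 CPM in Bd21, so that the F1 stood at 24.9% of Bd21. Bradi4g44590 had 3.81, 4.79, 1.69, 9.20 and 2.68 CPM in the F1, no count in the 3 Bd3-1 plants and 32.2, 29.9 and 30.4 CPM in Bd21. The F1 was at least 146-fold higher than Bd3-1, taking a floor of 3 counts over the group, and at 14.4% of Bd21 (adjusted p = 0.017, lost without Bd21 plant 2 or 3, up to 0.0636). Both of these were intermediate in control as well, as were 12 of the 22 in all.

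Many genes sorted as like a parent were expressed in that parent and had no count in the other. No count need not mean no expression, since reads of both accessions were mapped to a transcriptome built on the Bd21 reference. Of the 183 sorted as like Bd21, Bd3-1 was the lower parent in 175, and 95 had no count in a parent. Of the 81 sorted as like Bd3-1, Bd3-1 was the higher parent in 74, and 38 had no count in a parent. The number like Bd3-1 was 46 without Bd21 plant 2 and 43 without Bd21 plant 3. Bradi4g09567 had 24.9, 26.7, 45.0, 19.6 and 30.6 CPM in the F1, against 35.6, 55.3 and 32.6 CPM in Bd3-1 and no count in Bd21, and the F1 was at least 579-fold above Bd21. Bradi1g16151 had 18.1, 15.9, 25.2, 7.17 and 13.7 CPM in the F1, against 31.3, 31.8 and 36.2 CPM in Bd3-1 and no count in Bd21. Every F1 plant of the second gene was below every Bd3-1 plant, at 48.4% of the mean, although edgeR did not call the difference (adjusted p = 0.0962), which DESeq2 did (0.0388).

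Bradi5g17127 showed the same for Bd21. It had 74.3, 81.6, 141, 38.7 and 87.9 CPM in the F1, no count in Bd3-1 and 136, 193 and 209 CPM in Bd21. The F1 was at least 2792-fold above Bd3-1 and at 47.2% of Bd21, from which edgeR did not call it different (adjusted p = 0.141), whereas DESeq2 did (0.045). Bradi4g12160 had 72.7, 85.3, 76.2, 66.6 and 54.6 CPM in the F1, no count in Bd3-1 and 131, 152 and 109.7 CPM in Bd21, so that the F1 was at 54.3% of Bd21 with no overlap (adjusted p = 0.262). Both were sorted as like Bd21 in control too, as were 157 of the 183, and 45 of the 81 like Bd3-1 kept their class.

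With Bd3-1 the higher parent, 8 genes were sorted as like Bd21. Bradi4g43460 had 36.6, 14.7, 53.1, 20.8 and 21.1 CPM in the F1, against 82.3, 70.96 and 95.4 CPM in Bd3-1 and 18.1, 8.60 and 23.5 CPM in Bd21. The call against Bd3-1 (adjusted p = 0.0406) was lost in 8 of the 11 fits that left out a library (all but those without F1 plant 3, Bd21 plant 2 or Bd21 plant 3, up to 0.176), with only the drought libraries in the fit (0.0641) and without F1 plant 4 and Bd21 plant 2 together (0.0724). The gene was sorted as like Bd3-1 in control. In the F1 its Bd3-1 allele was nevertheless the more abundant in all 5 plants, by 3.04 ± 0.95 on the log2 scale (SD, n = 5, two-sided p = 0.0625 by exact permutation of signs), beside 2.30 between the parents. Bradi5g21290 had 18.3, 8.62, 21.9, 2.09 and 11.4 CPM in the F1, against 67.1, 111 and 42.3 CPM in Bd3-1 and 1.22, 2.70 and 4.94 CPM in Bd21. Its allele ratio differed between plants, with log2 values of Bd3-1 to Bd21 between -7.68 and 4.79, and its call against Bd3-1 was lost without F1 plant 2 or Bd3-1 plant 2 (adjusted p up to 0.132). DESeq2 also called it different from Bd21 (adjusted p = 0.0258).

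With Bd3-1 the lower parent, 7 genes were sorted as like Bd3-1. Bradi2g39074 had 27.3, 29.9, 25.4, 17.6 and 31.001 CPM in the F1, against 18.2, 16.6 and 13.4 CPM in Bd3-1 and 80.4, 31.3 and 59.3 CPM in Bd21. The lowest F1 plant fell within the Bd3-1 range, and the call against Bd21 was lost without Bd21 plant 1 or 3 (adjusted p up to 0.151) and with only the drought libraries in the fit (0.0726). Without F1 plant 4 and Bd21 plant 2 together it was also called higher than Bd3-1 (0.045). The Bd21 allele was the more abundant in all 5 F1 plants, with a mean log2 ratio of -1.86 ± 0.58 (SD, n = 5, two-sided p = 0.0625 by exact permutation of signs), beside -1.83 between the parents. Bradi4g25540 had 9.62, 6.22, 8.74, 7.66 and 11.3 CPM in the F1, against 11.05, 5.93 and 2.97 CPM in Bd3-1 and 20.4, 19.5 and 26.7 CPM in Bd21. It overlapped Bd3-1 and lay below Bd21 (adjusted p = 0.0307, lost without any of the 3 Bd21 plants or F1 plants 1, 2 or 4, up to 0.156, with only the drought libraries in the fit, 0.107, and without F1 plant 4 and Bd21 plant 2 together, 0.118), and was sorted as like Bd21 in control. Its allele ratio differed between plants, with log2 values of Bd3-1 to Bd21 between -3.35 and 6.79. The Bd3-1 allele was the more abundant in 2 of 5 plants. The mean was 0.62 ± 3.74 (SD, n = 5, two-sided p = 0.8125 by exact permutation of signs), beside -1.73 between the parents. With counts summed over the plants the ratio was -0.395.

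Over the genes that differed between the parents, the median F1 level lay midway between them on a linear scale. The position of each F1 plant was computed with 0 at the Bd21 level and 1 at the Bd3-1 level. This was done for the 400 genes called different between the parents and at least 2-fold apart. F1 levels entered their choice only through the filter on low counts and the shared estimate of the spread. The median position over genes was 0.506, 0.525, 0.487, 0.514 and 0.486 in F1 plants 1 to 5, with a mean of 0.504 ± 0.0168 (SD, n = 5). By gene, the position of the F1 mean had a median of 0.495 and quartiles of 0.341 and 0.648. It lay between 0.3 and 0.7 in 244 genes (61.0%), below 0 in 18 and above 1 in 13. The median was 0.488 for the 136 genes higher in Bd3-1 and 0.498 for the 264 higher in Bd21. For 441 genes called different between the parents in control, and at least 2-fold apart in the same direction in drought, it was 0.486. The fold and direction used the same drought parental means as the position.

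The position also showed what the classes hold. Median positions were 0.526 in the 22 intermediate genes, 0.623 in 79 genes like Bd3-1, 0.414 in the 183 like Bd21 and 0.527 in 116 unresolved genes. Of the genes like Bd21, 119 of 183 lay between 0.3 and 0.7, as did 43 of 79 like Bd3-1. Thus 256 of the 422 genes that differed between the parents were within this middle range, whereas 22 were called different from both parents. On the log2 scale, where the midpoint is the geometric mean, the median position of the 400 genes was 0.39.

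**Figure D3:**
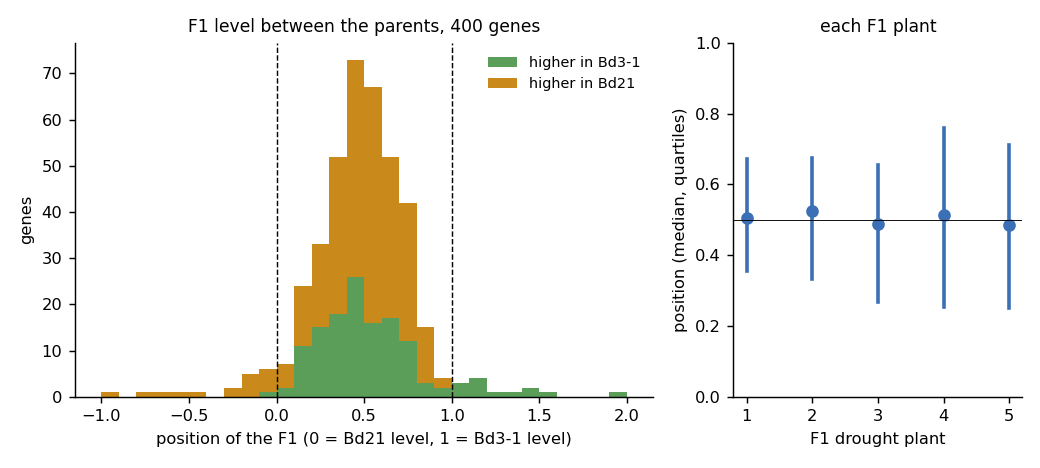
Position of the F1 between its parents for 400 genes that differed between the parents (left, number of genes on the y axis, values beyond the axis placed in the end bins, bars stacked by the higher parent) and the median with quartiles for each of the 5 F1 plants (right). The distribution centres on 0.495, and the plants' medians lie between 0.486 and 0.525.

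The test against the mid-parent was made on the log2 scale. On the log2 scale the F1 was above the mid-parent in 294 genes and below it in 125 (1.85% of genes called, 1.30% above and 0.552% below). Of the 294, 143 were called different between the parents, and 99 of these were at a linear position between 0.3 and 0.7. Of the 125 below, 1 was called different between the parents. The genes called numbered 268 without F1 plant 2, 253 without Bd3-1 plant 2 and 275 without Bd21 plant 3. A gene expressed in a single parent and at the linear midpoint in the F1 lies above the geometric mean by construction.

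Genes expressed in only 1 parent were examined next. They had at least 1 CPM in all 3 drought plants of a parent and under 1 CPM in all 3 of the other. This criterion did not use the F1, but the filter on low counts did, by requiring a count in over 10 libraries of any group. A gene counted in neither the F1 nor the other parent could not pass this filter. The numbers reaching 1 CPM in no F1 plant may therefore be too low, and the median F1 levels too high. Of 135 genes expressed in Bd3-1 only, 42 reached 1 CPM in all 5 F1 plants, 76 in some and 17 in none. Of 203 expressed in Bd21 only, 104 reached it in all 5, 89 in some and 10 in none. The cutoff was the same for parent and F1, so a gene near it in the parent can miss it in an F1 that lies midway. The F1 mean had a median of 51.5% of the Bd3-1 level (quartiles 33.3% and 73.96%) and 49.6% of the Bd21 level (quartiles 35.04% and 65.9%). By plant the medians were between 30.7% and 53.6% of Bd3-1 and between 45.0% and 47.3% of Bd21, with F1 plants 4 and 5 lowest for Bd3-1 genes. Where the expressing parent's reads were assigned mostly to its own allele, 93.6% of F1 counts (median of 87 genes) came from the Bd3-1 allele and 91.8% (67 genes) from the Bd21 allele. The most abundant genes of Bd3-1 only, Bradi1g49322 and Bradi1g58857, were at 28.1 to 57.5 and 25.7 to 34.5 CPM in the F1, against 78.02 to 121 and 55.7 to 65.9 CPM in Bd3-1, or 45.7% and 47.3% of its mean.

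Without Bd21 plant 1 the number of genes expressed in Bd3-1 only was 300 and their F1 level 63.2%, and it was 203 without Bd3-1 plant 1 and 218 without Bd3-1 plant 3. Without Bd21 plant 2, 341 genes were expressed in Bd21 only. With fewer plants the criterion is easier to meet. In control, 51 of the 135 and 113 of the 203 genes met the same criterion.

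**Figure D4:**
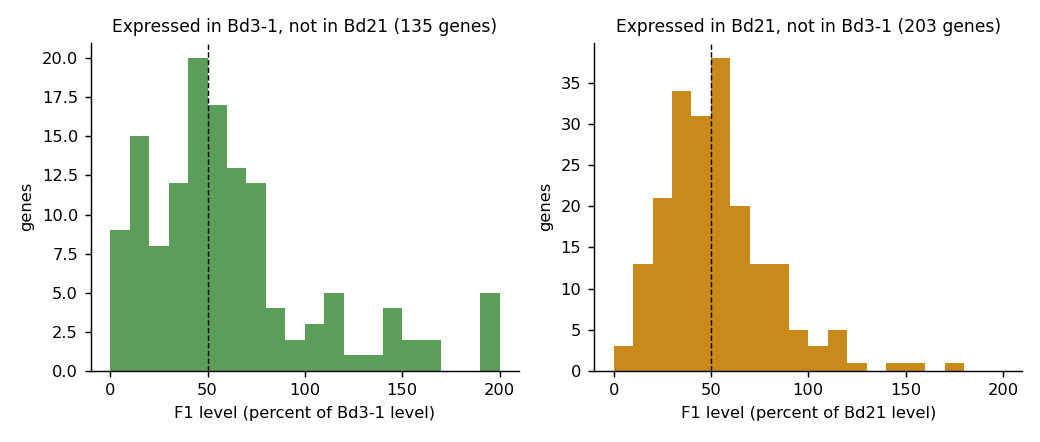
F1 level as a percent of the expressing parent's mean CPM (x axis; values above the axis placed in the last bin) for genes expressed in Bd3-1 only (left, 135 genes) and in Bd21 only (right, 203 genes), with the number of genes on the y axis and a dashed line at 50%. Medians were 51.5% and 49.6%.

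The sorting used the sum of both alleles, and the ratio between them within the F1 was not part of it. Of the 422 genes that differed between the parents, 113 had alleles that could be told apart (own-allele count above 1 and under 20% of the opposing allele in all 14 parental libraries, met by 3403 genes). In 106 of these 113 the allele of the higher parent was the more abundant in the F1, beside 64.2% of all 3403 genes, and in 62 it was so by at least 2-fold. The median difference was 1.54 on the log2 scale between the parents and 1.17 between the F1 alleles, with a correlation across these genes, which are not independent replicates, of 0.884. The direction was shared in 4 of 4 intermediate genes, 18 of 18 like Bd3-1, 30 of 31 like Bd21 and 54 of 60 unresolved genes. Of the 5 genes above both and 7 below both that could be told apart, none had a 2-fold difference between its F1 alleles, and the median allelic difference was 0.25 and 0.16, beside 199 of 3227 genes with no call that had such a difference and their median of 0.26.

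**Figure D5:**
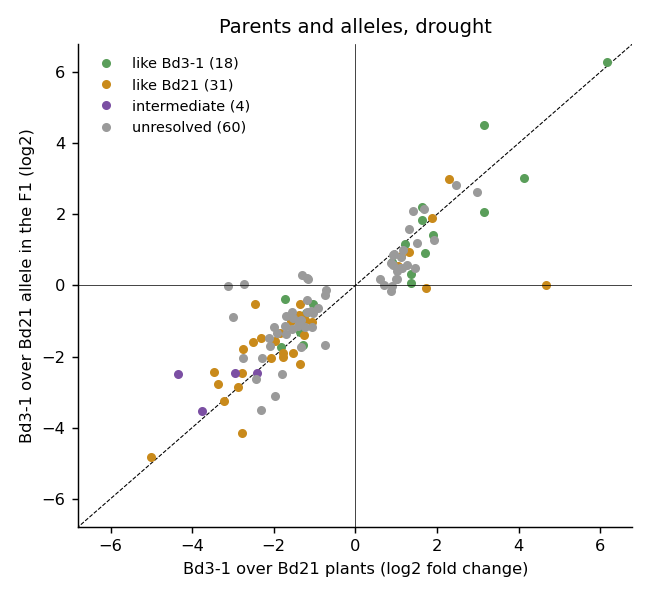
Log2 ratio of the Bd3-1 to the Bd21 allele in the F1 (y axis, counts summed over 5 drought plants, pseudocount 1) against the log2 fold change of Bd3-1 over Bd21 plants (x axis) for 113 genes called different between the parents; colours give the class and the dashed line equality. In 106 genes the ratios had the same sign.

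The locus identifiers carry a chromosome number, and by it the 422 genes that differed between the parents were spread unevenly: 102 (24.2%) were on chromosome 4 and 68 (16.1%) on chromosome 5, beside 16.2% and 9.42% of all genes tested. Of the 22 intermediate genes 10 were on chromosome 4, and of the 28 below both parents 10 were on chromosome 3, which holds 22.2% of all genes tested. The 14 genes above both parents were divided over chromosomes 1 to 5 as 4, 3, 3, 3 and 1.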

How the data were processed

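Allele counts of 24 leaf libraries were used. The authors trimmed stranded poly(A) paired-end reads (Trimmomatic 0.38, cutadapt 3.7), called Bd3-1 variants against the Bd21 reference (STAR 2.6.1b, GATK 4.2.5.0), mapped to a diploid transcriptome with Bowtie 1.2.2 and deposited emase estimated counts per gene and allele, unscaled and not necessarily whole. Reads shared between near-identical genes were divided by emase, so counts of such genes are uncertain.

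Here both allele counts were summed per gene and library and rounded. A gene was tested if over 10 libraries held any count for it (22629 of 32439). Totals were fitted with edgeR 4.0.16 in R 4.3.3 (TMM, quasi-likelihood F-test, 1 coefficient for each of 6 groups, Benjamini-Hochberg adjusted p under 0.05, or 0.1 for the interaction). The SE of a log2 fold change was derived from the test, as its absolute value divided by the square root of the F statistic. CPM are counts scaled by the TMM library size. The fit was tested on simulated data. Groups and replicates came from the sample labels; p-values measure the spread between the labelled plants. All 16 pairs of drought replicates differed by more than sampling noise. A floor of 3 counts over a group was used where all its plants had no count; it covers counting error only.

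For each class, 2 genes (4 where both directions occur) were named by the smaller defining fold change (the parental difference for genes like a parent) among those of at least 5 CPM with no overlap; the 2 highest for genes of 1 parent, the 2 largest interactions in a direction of at least 5 CPM, and list genes from the study's text. Identifiers matched none of the 31335 genes of the RefSeq table, so other genes have no name, and the leaf was checked with 1 gene. Members, classes and lists were chosen with earlier results of these data known. Alternatives were relative log expression factors, DESeq2 1.42.0 (Wald test), drought libraries only, other filters, thresholds and scales, a replicate block, and leaving out libraries. Figures used matplotlib 3.10.9.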

Additional observations from a re-analysis of the deposited data

Results flagged for a closer look

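Over the 5 F1 drought plants, 75 named or listed genes were screened for a plant whose gap to the nearest other plant exceeded Dixon's critical value. Such a gap was found in 10 genes. The critical value is for normally distributed values, of which chance flags about 1 in 20 groups. CPM were screened without taking logs, and listed genes can vary together, so the rate by chance here was not known. In 8 of the 10 the plant was F1 plant 4, and it was the highest. The phenylpropanoid and flavonoid genes among them were Bradi5g15830 (phenylalanine ammonia-lyase, 201 CPM, others 13.4 to 35.3), Bradi5g19250 (flavanone 3-hydroxylase, 11.2 CPM, others 0 to 1.01), Bradi4g31380 (flavonoid 3′-hydroxylase, 268 CPM, others 24.3 to 67.7), Bradi2g52260 (polyphenol oxidase, 147 CPM, others 21.7 to 47.7) and the MYB gene Bradi2g11676 (118 CPM, others 35.7 to 47.2). The other 3 were the allene oxide cyclase gene Bradi1g15840, in jasmonic acid synthesis (166 CPM, others 59.5 to 81.7), the lectin gene Bradi3g19730 (61.0 CPM, others 1.72 to 8.75) and Bradi4g20520, of unknown function (502 CPM, others 3.49 to 21.8). The gaps of the other 2 genes were in different plants: the GBF2 ortholog Bradi2g15940 had 15.5 CPM in F1 plant 2 (others 8.26 to 9.61), and the clock gene Bradi3g16515, an LHY ortholog, 37.9 CPM in F1 plant 3 (others 1.67 to 11.3). None of these 10 genes was called in the F1 against a parent.

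The departure of the F1 from the mid-parent differed between drought and control in 3 genes at an adjusted p under 0.1 in edgeR, by -1.25 on the log2 scale in Bradi3g18390, -1.01 in Bradi1g34070 and 6.50 in Bradi5g12865, each with an adjusted p of 0.0944. The drought F1 and drought parents came from separate dry-downs, and experiment and generation cannot be told apart.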

How the results depend on the processing

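Counts of called genes depended strongly on the tool and threshold. DESeq2 called 700 genes in the F1 against Bd21 (227 with edgeR), 770 against Bd3-1 (374), 919 against the mid-parent (419), 718 between the parents (422) and 50 interactions (3). Its classes held 49 genes above both, 76 below both, 59 intermediate, 296 like Bd21 and 161 like Bd3-1. At an adjusted p under 0.01, edgeR called 79 genes against Bd21, 184 against Bd3-1, 176 against the mid-parent and 277 between the parents, with 3 above both, 7 below both, 6 intermediate and 45 like Bd3-1. With only the drought libraries in the fit, 34 genes lay above both. Without the filter on low counts 0 interactions passed.

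Leaving out each drought library in turn gave 80 to 288 genes in the F1 against Bd21, 202 to 419 against Bd3-1, 253 to 436 against the mid-parent (253 without Bd3-1 plant 2), 316 to 463 between the parents and 0 to 14 interactions. The classes ranged between 2 and 16 above both, 10 and 39 below both, 11 and 19 intermediate, 132 and 205 like Bd21 and 43 and 89 like Bd3-1 (43 without Bd21 plant 3 and 46 without Bd21 plant 2). Between 203 and 341 genes were expressed in Bd21 only, with the F1 at 43.2% to 52.0% of Bd21, and 134 to 300 in Bd3-1 only, with the F1 at 45.1% to 63.2% of Bd3-1. The position ranged between 0.482 and 0.534.

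Whether replicate numbers pair the samples was not settled. Of 9 pairs with the same number, 2 had a correlation of deviations over 0.1 (range -0.033 to 0.25). Both were between the F1 and Bd21 (0.226 for number 1 and 0.25 for number 3). Pairs with different numbers were not compared. With the replicate block the fit called 122 genes against Bd21, 258 against the mid-parent and 0 interactions, with 9 above both, 13 below both, 8 intermediate and 53 like Bd3-1. The block also ended the calls of Bradi5g00970 against Bd3-1 (adjusted p = 0.0988) and Bd21 (0.126), of Bradi3g08385 (0.063), Bradi5g21290 (0.0586), Bradi4g43460 (0.0639) and Bradi1g49322 (0.127) against Bd3-1, and of Bradi2g39074 (0.0613) and Bradi4g25540 (0.0623) against Bd21. An alternative chosen after seeing the data left out Bd21 plant 2 and F1 plant 4 together, giving 108 genes against Bd21, 253 against the mid-parent, 0 interactions, 8 above both, 15 below both, 12 intermediate and 343 expressed in Bd21 only. Read by linear position, 256 genes were intermediate, and on the log2 scale the median position was 0.392. A 2 CPM criterion put the F1 at 51.1% of Bd21, and an allele criterion on accession means gave a median F1 allelic difference of 1.76 (1.17 in the report). The 6 values that changed sign were of genes not called: Bradi1g51770 against Bd21 was -0.0152 with relative log expression factors, -0.0179 with DESeq2, and -0.155, -0.0756 and -0.0669 without Bd21 plant 1, F1 plant 2 and Bd21 plant 3, and Bradi2g18510 against Bd3-1 was -0.0222 without Bd3-1 plant 3 (leaving out single libraries, -0.155 to 0.364 and -0.0222 to 0.636). Of 62 differences of named genes, 35 were called and 15 of these held in all alternatives. The cause of these changes was not tested. Depth limits what could be called at low counts, the least in total being 6905973 in Bd21 plant 2.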
